A study of Rattus norvegicus with 16 samples.

Results

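A small set of miRNAs known from blood cells was followed through 16 small RNA libraries from rat tissues. The set was fixed by name: rno-mir-142, rno-mir-223, rno-mir-150, rno-mir-155, rno-mir-146a, rno-mir-146b and rno-mir-342 (rno stands for rat and is dropped below), taken wherever a hairpin identifier in the read tables equalled a listed name. Of the 7 listed hairpins, 6 had reads, out of 392 hairpins with reads in the series, and they gave 12 of its 712 arms. An arm is the strand cut from the 5′ side (5p) or the 3′ side (3p) of a hairpin. The remaining hairpin, mir-155, is not analysed here.

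The libraries came from adult male rats of the inbred strains BN-Lx and SHR, untreated as far as the labels say. A single rat of each strain gave brain, heart, kidney, liver, spleen and testis, which makes 12 libraries, and 4 further livers (replicates 2 and 3 of each strain) make 6 livers in all. Tissue was used whole and the labels describe no removal of blood, so each library holds the RNA of every cell in the organ, and in such bulk samples fewer cells of a type and less RNA per cell cannot be told apart. A strain outside liver is a single animal, so that the 2 libraries of a tissue differ in both rat and strain.

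The members play different parts in blood. mir-223 is a miRNA of the myeloid line, abundant in neutrophils and monocytes. mir-150 is high in mature B and T lymphocytes, and mir-342 is also high in lymphocytes. mir-142 is made in nearly every white blood cell, and both of its arms are in use. mir-146a and mir-146b are switched on by inflammatory signalling and dampen it; they are not limited to blood cells. The spleen is a store of blood and a lymphoid organ, packed with lymphocytes, macrophages, neutrophils and red cells. The other tissues hold blood in their vessels and some resident immune cells.

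The mature strands below are those of RefSeq (rat assembly GRCr8), written 5′ to 3′ with the seed, bases 2 to 8, in capitals, because the seed decides which messenger RNAs a miRNA pairs with. They are shown to make plain which members share a seed.
mir-223-3p: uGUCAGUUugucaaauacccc
mir-342-3p: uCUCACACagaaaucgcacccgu
mir-146a-5p: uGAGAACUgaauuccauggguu
mir-146b-5p: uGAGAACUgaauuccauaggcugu
mir-142-3p: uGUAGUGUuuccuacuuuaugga
mir-142-5p: cAUAAAGUagaaagcacuacu
Only mir-146a-5p and mir-146b-5p have a seed in common, and they differ near the 3′ end. The other seeds printed are all different, and the members were grouped as miRNAs known from blood cells and not by target pairing. mir-150 is named only.

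The hairpins lie apart in the genome. On GRCr8, mir-223 is at chrX:65151383-65151492 (plus strand) in the span of a long non-coding RNA gene. mir-142 is at chr10:73055104-73055190 (plus strand) in the span of Tspoap1. mir-146a is at chr10:28349996-28350090 (minus strand), also in a non-coding gene, and mir-146b is at chr1:255144860-255144947 (plus strand) in the span of C1h10orf95. mir-342 is at chr6:133329655-133329753 (plus strand) within Evl, a gene for an actin regulator. The gene table used gives spans only, so exon and intron were not separated.

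Libraries held 26880 to 1064894 reads on hairpins in the six-tissue set, lowest in both testes (26880 and 29131), and 1167607 to 3229461 in the further livers. A level is given here as reads divided by the library's outlier-corrected mean (ocm), which is the mean number of reads per arm after the 3 most read arms are left out. A level of 1 is therefore the mean over arms and not a typical arm, as a few arms hold most reads. In the BN-Lx spleen mir-142-5p, at 1.08, ranked 71 of 449 arms with reads. A count of 0 allows up to 3 reads, which is a level of 0.103 and 0.0906 in the testes but at most 0.00873 in the other libraries. Such limits, and the intervals given below, cover counting error only. Marker miRNAs named for liver, heart, brain, kidney and testis were highest in both libraries of their own tissue for all 5 lists, for example mir-122 at 469 and 530 in liver against at most 3.16 elsewhere.

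The set made up 19.4% of all reads in the BN-Lx spleen and 19.8% in the SHR spleen. In the other 10 libraries of the six-tissue set it made up 0.866% to 2.44%, with the heart highest (2.44% and 2.41%). In both spleens most of these reads came from mir-223-3p and mir-150-5p, which ranked 2 and 5 by reads among all arms there. In brain mir-342-3p added a large part, with 3753 of 12278 member reads in BN-Lx.

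**Figure D1:**
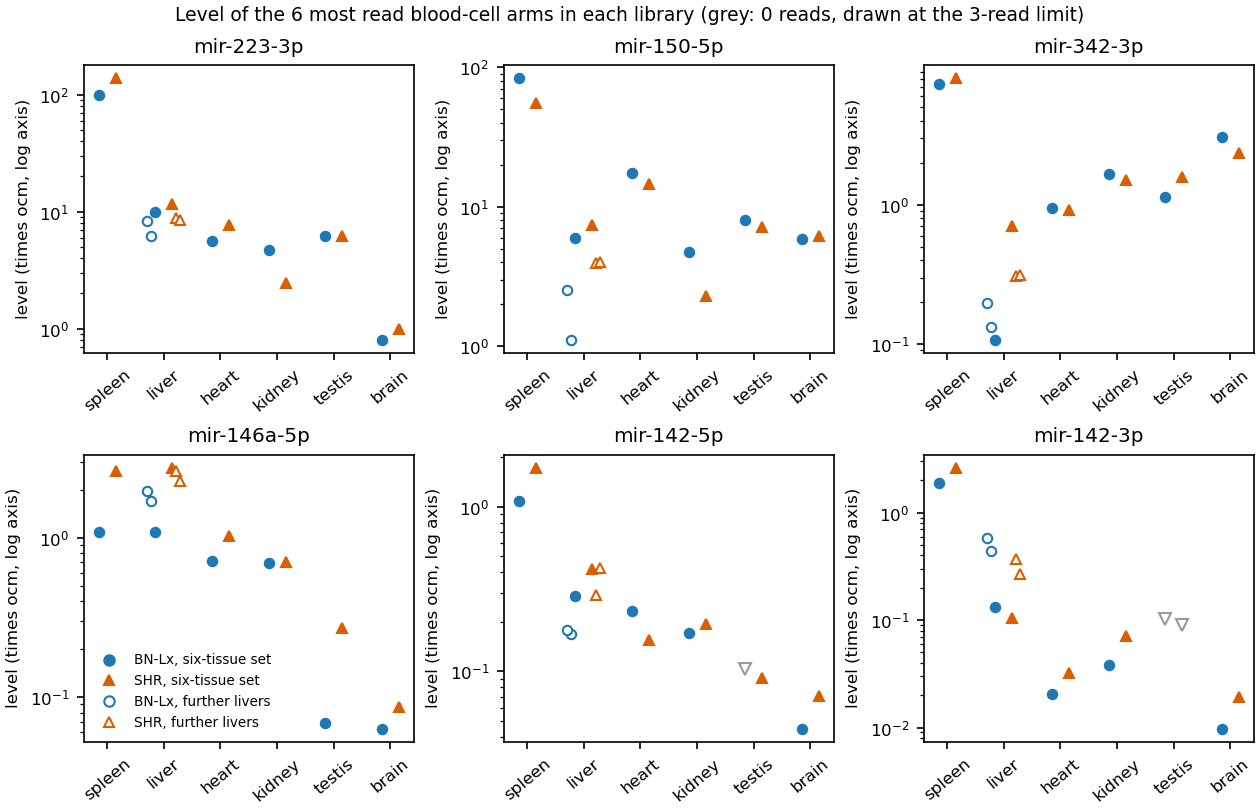
Level of the 6 most read member arms in each library, in times the ocm on a log axis, by tissue, with circles for BN-Lx, triangles for SHR, open symbols for the further livers and grey symbols for 0 reads drawn at the 3-read limit. Spleen stands above every other tissue for mir-223-3p, mir-150-5p, mir-342-3p and both arms of mir-142, while mir-146a-5p is as high in liver (1.08 and 2.75) as in spleen (1.09 and 2.60).

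The myeloid member mir-223-3p had 73413 reads in the BN-Lx spleen and 65200 in the SHR spleen, levels of 100.1 and 138. The next tissue was liver at 10.01 and 11.7, followed by heart (5.60 and 7.65), testis (6.15 and 6.16), kidney (4.66 and 2.47) and brain (0.805 and 0.993). Heart and testis overlapped, and the other neighbours in this order did not. As a share of the level in the spleen of the same rat, brain held 0.804% and 0.719%, the lowest trace of mir-223-3p, and liver the highest, 10% and 8.46%. The level in spleen exceeded the mean of the other 5 tissues by 5.13 (SE 0.209) on the log2 scale, with an adjusted p of 3.71e-09 in edgeR's quasi-likelihood test (Benjamini-Hochberg over 457 arms, libraries scaled by TMM, a trimmed mean of ratios). The other strand, mir-223-5p, had 53 and 52 reads in the spleens and at most 5 in any other library of the six-tissue set.

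The lymphoid member mir-150-5p had 61122 and 26181 reads in the spleens, levels of 83.3 in BN-Lx and 55.4 in SHR. The tissue next to spleen was not liver but heart, at 17.5 and 14.5, and then came testis (8.08 and 7.16), liver (6.00 and 7.39), brain (5.89 and 6.14) and kidney (4.77 and 2.31). Testis, liver and brain overlapped with their neighbours in this order. The trace of mir-150-5p in heart was 21% and 26.1% of the level in spleen, and in brain 7.07% and 11.1%. Spleen exceeded the mean of the other tissues by 3.67 (SE 0.241) on the log2 scale (adjusted p = 2.75e-07). The other strand, mir-150-3p, had 72 and 15 reads in the spleens and at most 1 elsewhere in the six-tissue set.

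The second lymphoid member, mir-342-3p, had a different order. Its level was 7.38 and 8.05 in spleen, 3.04 and 2.36 in brain, 1.669 and 1.496 in kidney, 1.13 and 1.57 in testis, 0.945 and 0.920 in heart, and 0.108 and 0.708 in liver. Brain, the tissue with the lowest level of mir-223-3p, thus held 41.2% and 29.4% of the spleen level of mir-342-3p. Liver, second for mir-223-3p, was last, and its 2 libraries had the largest ratio to each other of any tissue. Spleen exceeded the mean of the other tissues by 3.12 (SE 0.417) on the log2 scale (adjusted p = 0.000143), and brain alone by 2.19 (SE 0.664, adjusted p = 0.0137). With scaling by total reads only, the difference from brain was 1.24 and the adjusted p 0.113.

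The pan-leukocyte hairpin mir-142 was rarer. mir-142-3p had 1394 and 1243 reads in the spleens, levels of 1.90 and 2.63, against 0.134 and 0.106 in liver, 0.0385 and 0.0704 in kidney, 0.0203 and 0.0321 in heart and 0.00973 and 0.0194 in brain. No read of it was found in either testis, so that spleen was at least 18.4-fold higher in BN-Lx and 29-fold higher in SHR than a count of 0 in testis allows. mir-142-5p was at 1.08 and 1.73 in spleen and fell less steeply, to 0.285 and 0.417 in liver, 0.231 and 0.156 in heart, 0.171 and 0.194 in kidney and 0.0446 and 0.0705 in brain. Fitted without the testis libraries, spleen exceeded the mean of the other tissues by 6.10 (SE 0.32) for mir-142-3p and by 3.33 (SE 0.305) for mir-142-5p, with adjusted p of 1.82e-06 and 5.65e-05. Against liver alone, mir-142-5p differed by 2.05 (SE 0.628, adjusted p = 0.0435), and with RLE scaling, which uses median ratios, by 1.84 (adjusted p = 0.0626).

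The inflammation-linked members did not follow the rest. mir-146a-5p had a level of 1.09 in the BN-Lx spleen and 2.60 in the SHR spleen, and 1.08 and 2.75 in the livers of the same rats. The log2 difference between spleen and liver was 0.00 (SE 0.511, adjusted p = 1). The further livers held 157% and 180% of the spleen level of their strain for BN-Lx, and 101% and 87.1% for SHR. With all 16 libraries the difference was -0.59 (SE 0.499, adjusted p = 0.41). Heart followed at 0.718 and 1.02, kidney at 0.695 and 0.706, and testis and brain were lowest, between 0.0632 and 0.272. Spleen differed from brain by 5.17 (SE 0.624, adjusted p = 2.65e-05), whereas the differences from heart, 0.87 (SE 0.526, adjusted p = 0.295), and from kidney, 1.33 (SE 0.532, adjusted p = 0.0878), did not pass. DESeq2 called the difference from kidney (adjusted p = 0.00349). mir-146b-5p was scarce, with 33.5 and 69.5 reads in the spleens and 67 and 63.5 in the brains, and its brain levels (0.0543 and 0.0649) lay between the 2 spleen levels (0.0457 and 0.147). Without the testis libraries, where it had no read, spleen exceeded the mean of the other tissues by 1.97 (SE 0.435, adjusted p = 0.0077), but the difference from brain alone was 1.25 (adjusted p = 0.0943). Reads that fit both hairpins are divided between them. These shared reads made up at most 1.78% of mir-146a-5p but up to 20% of mir-146b-5p in a library, the BN-Lx heart with 2.5 reads. In the first livers they made up 14.3% (BN-Lx) and 13% (SHR) of mir-146b-5p, and 13.6% of 66 reads in the second SHR liver.

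**Figure D2:**
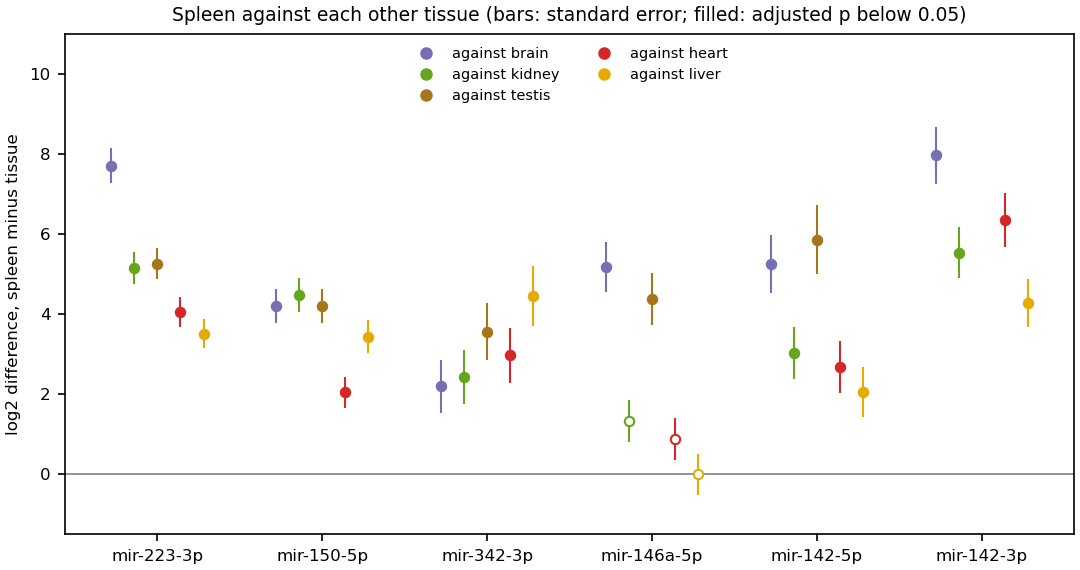
Log2 difference between spleen and each other tissue for the 6 most read member arms (points, with the standard error as a bar; filled where the adjusted p was below 0.05), from the fit to the 12 libraries. mir-223-3p runs from 3.51 against liver to 7.70 against brain, mir-342-3p runs the opposite way from 2.19 against brain to 4.45 against liver, and mir-146a-5p sits at 0.00 against liver; mir-142-3p against testis, where it had no reads, is left out.

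Over the set, 10 of the 12 arms had enough reads to be tested, and 10 were higher in spleen than in the mean of the other tissues, where 18.4% of all 457 arms tested were higher. The 2 arms not tested were mir-146a-3p and mir-146b-3p. Scarce arms such as mir-223-5p and mir-150-3p reached the test through their reads in spleen, so this count describes the arms tested and is no measure of the set. Their median log2 difference was 3.72, against 0.05 over all arms, and 3.46 against -0.09 without the testis libraries. Against single tissues, the arms higher in spleen numbered 8 for brain, 7 for liver, 8 for heart, 8 for testis and 7 for kidney, beside 24.5%, 8.53%, 11.8%, 16.4% and 13.1% of all arms. Scarce arms made some of these calls uncertain. mir-223-5p and mir-146b-5p had no reads in testis, where the BN-Lx depth allows no bound above 1-fold, and lost their calls there with total reads. Against liver, mir-342-5p lost its call with RLE scaling and DESeq2, and mir-150-3p lost its calls against liver, heart and kidney with DESeq2. With all 16 libraries the fitted fold of spleen over liver for mir-342-5p went from 24.8 to 2.11 (adjusted p = 0.393). No member was lower in spleen in any of these tests. Both spleen libraries lay above the other 10 libraries for 8 of the 12 arms, which are both arms of mir-142, mir-150, mir-223 and mir-342, and for 6.73% of the 698 arms with reads in the 12 libraries. For mir-150-3p, mir-223-5p and mir-342-5p the testis libraries are too shallow to decide this, with 3-read limits of 0.103 and 0.0906. Their spleen levels were 0.0982 and 0.0318, 0.0723 and 0.110, and 0.0355 and 0.0381. In the BN-Lx testis a single read put mir-342-5p at 0.0344.

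By the study's rule for tissue-specific miRNAs, a level at least 5 times that of every other tissue in each strain, 3 of the 12 arms were specific to spleen, beside 1.86% of all arms. These were mir-223-3p (10 and 11.8 times the next tissue), mir-142-3p (14.2 and 24.9 times) and mir-150-3p, whose level in spleen did not exceed the 3-read limit of the testis libraries. The rule used the first livers only. In the further BN-Lx livers mir-142-3p was at 23% and 30.5% of the BN-Lx spleen level, which would not meet the rule, and with all 16 libraries the fitted fold of spleen over liver went from 19.4 to 5.29. mir-150-5p fell just short, at 4.77 and 3.83 times its level in heart. mir-142-5p also fell short, at 3.78 and 4.15 times its level in liver, while mir-342-3p reached 2.43 and 3.4 times its level in brain.

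The choice of scaling shifted the members together with the rest of the arms. The median log2 difference between spleen and the other tissues over all arms was 0.05 with TMM scaling, -0.22 with RLE scaling and -0.35 with total reads only, and 63.2%, 55% and 50% of the arms called were higher in spleen. Against brain the median was -0.49, -1.0 and -1.37. From TMM to total reads mir-223-3p went from 5.13 to 4.74 and mir-150-5p from 3.67 to 3.23. Every member arm tested stayed higher in spleen than in the mean of the other tissues under each of these scalings. Red-cell miRNAs were also highest in spleen, where mir-144 and mir-451 summed to 91.2 and 61.4, against 26.2 and 12.8 in heart, 12.8 and 11.5 in liver and 1.49 to 3.56 in the other libraries. Pancreas markers, of which 8 and 7 of 8 arms had reads in the spleens, summed to 0.220 and 0.743 there and to at most 0.544 elsewhere. The part of either in the members' levels was not tested.

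The balance of the myeloid and lymphoid members was read as the ratio of mir-223-3p to mir-150-5p reads within a library, which needs no scaling. The ratio was 1.20 in the BN-Lx spleen and 2.49 in the SHR spleen. It was 1.67 and 1.58 in liver, 0.977 and 1.07 in kidney, 0.762 and 0.861 in testis, 0.321 and 0.528 in heart, and 0.137 and 0.162 in brain. Thus mir-150-5p had more reads than mir-223-3p in heart and brain, and fewer in liver and spleen. In kidney and testis the ratio was near 1. The paper warns of capture bias in small RNA reads, so a ratio of reads is not a ratio of molecules. It can be compared between libraries only, and the same holds for the arms of a hairpin. The 2 rats gave the same order of tissues apart from spleen and liver. On the log2 scale the spleens averaged 0.79 (SD 0.74, n = 2) and the other libraries -0.72 (SD 1.28, n = 10), and an exact two-sided permutation test gave p = 0.0909, where the smallest p possible was 0.0303. Adjusted over the 3 ratios formed, p was 0.273, and with that adjustment a single ratio could not have passed. The BN-Lx spleen lay below both first livers and the SHR spleen above all 10 other libraries.

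With mir-342-3p as the lymphoid member the ratio was 13.6 and 17.2 in spleen, and it ranged more widely elsewhere, from 0.265 and 0.420 in brain to 93.0 and 16.5 in liver. The exact permutation p was 0.303 for this ratio (adjusted p = 0.455). The 2 lymphoid members did not keep a constant ratio to each other either. mir-150-5p reads were 11.3 and 6.89 times those of mir-342-3p in spleen, 18.5 and 15.7 times in heart, and 1.94 and 2.60 times in brain. Spleen against the other libraries gave an exact permutation p of 0.727 for that ratio.

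**Figure D3:**
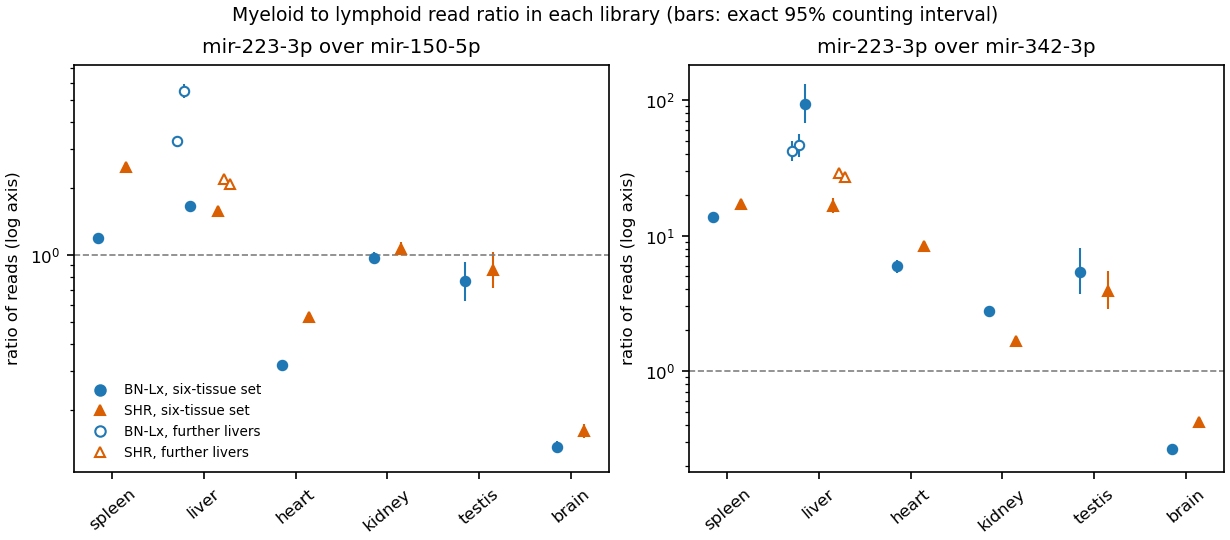
Ratio of mir-223-3p to mir-150-5p reads (left) and to mir-342-3p reads (right) in each library on a log axis, with exact 95% counting intervals, by tissue and strain. Brain is lowest in both panels (0.137 and 0.162 on the left) and liver and spleen are highest, with the further BN-Lx livers at 5.52 and 3.26 on the left.

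In the 4 further livers the ratio of mir-223-3p to mir-150-5p was higher than in the first livers, at 5.52 and 3.26 for BN-Lx, then 2.21 and 2.1 for SHR. The levels of both members were below those of the first livers there, 6.17 to 8.76 for mir-223-3p and 1.12 to 4.05 for mir-150-5p. All 6 livers had more mir-223-3p than mir-150-5p reads.

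The traces of the members in other tissues were set beside the arms whose pattern over the 12 libraries was most like theirs, by Pearson's r of log2 levels. These libraries share 2 rats and tissues, so r is a description. For mir-150-5p the nearest arms were mir-191-5p (r = 0.911), the red-cell miRNA mir-451-5p (r = 0.890) and mir-301b-3p (r = 0.841). mir-451-5p was at 89.5 and 58.6 in spleen, 25.8 and 12.4 in heart, and 12.5 and 11.3 in liver. By its mean heart was next to spleen, as for mir-150-5p, but heart and liver overlapped. In testis (2.23 and 2.15) and brain (1.74 and 3.47) mir-451-5p was lower than mir-150-5p (8.08 and 7.16, then 5.89 and 6.14). The nearest arm, mir-191-5p, was at 22.1 and 19.0 in testis and 19.9 and 18.5 in heart. For mir-223-3p they were mir-92a-2-3p (r = 0.888), mir-20b-5p (r = 0.873) and mir-500-3p (r = 0.857), of which mir-92a and mir-20b belong to mir-17 type clusters, active in dividing cells. For mir-342-3p they were mir-425-3p (r = 0.919), mir-140-5p (r = 0.906) and mir-181a-1-5p (r = 0.780). For mir-146a-5p they were mir-28-5p (r = 0.926), mir-142-5p (r = 0.862) and mir-26b-5p (r = 0.861). For mir-142-5p they were mir-532-5p (r = 0.952), mir-144-5p (r = 0.913) and mir-15b-3p (r = 0.876), and for mir-142-3p they were mir-223-5p (r = 0.955), mir-17-2-3p (r = 0.941) and mir-532-5p (r = 0.930). Some of these r rest on few reads outside spleen. In the 12 libraries mir-223-5p had at most 5 reads there, mir-17-2-3p at most 7 and mir-301b-3p at most 9.

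A wider list of miRNAs known from blood formation, with 27 names, had 66 arms with reads, of which 54 were tested. Of these, 30 were higher in spleen than in the mean of the other tissues and 3 were lower, beside 18.4% of all arms higher and 29.1% called in either direction. The median log2 difference was 1.82. Higher than this mean did not always make spleen the highest tissue. mir-18a-5p was at 0.938 and 0.629 in the spleens and up to 2.96 elsewhere, and mir-23a-3p at 22.2 and 19.5 against up to 46.0. Of those with the largest differences, mir-17-2-3p and mir-144-3p were scarce. mir-17-2-3p was at 0.0655 and 0.129 in the spleens and at most 0.0163 elsewhere, mir-144-3p at 0.0886 and 0.176 against at most 0.0273, and mir-144-5p at 1.65 and 2.66 against at most 0.373. The 3 lower arms were mir-125b-1-5p (-0.99, SE 0.276), mir-125b-2-5p (-0.98, SE 0.277) and mir-125a-5p (-0.96, SE 0.259), miRNAs of many tissues and of blood stem cells. The mir-125b copies share reads and are not separate evidence. The same holds among the 30 higher arms for copies such as mir-181a-1-5p and mir-181a-2-5p, mir-19b-1-3p and mir-19b-2-3p, and mir-17-1-5p and mir-17-2-5p, so that the count exceeds the number of distinct miRNAs.

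Both arms of mir-142 were in use. Of its reads, 63.8% came from the 3p arm in the BN-Lx spleen (exact 95% interval 61.7 to 65.8%) and 60.3% in the SHR spleen (58.2 to 62.4%). In brain, first livers, heart and kidney the share was 8.08% to 31.9%, and no interval reached that of either spleen. These shares rest on 67 to 193 reads a library, and in testis on 0 and 3 reads. The log2 difference in the ratio of 3p to 5p reads was 3.93 (SE 0.832) against the mean of the other tissues, and the adjusted p over 144 hairpins was 0.0622, so it did not pass. None of the 144 hairpins passed that test (0%), and 9 had an unadjusted p below 0.05. Against heart alone mir-142 passed narrowly, at 3.54 (SE 0.756, adjusted p = 0.0452), and without the testis libraries it did not (3.55, adjusted p = 0.0794). No hairpin was called higher against heart without the strain term, nor with any single spleen, heart or testis library left out. The call against heart stood beside 1.39% of hairpins called higher and 2.78% called in either direction. mir-142 was not called against brain, liver, testis or kidney, where 0%, 0.694%, 1.39% and 0% of hairpins were. With each library left out in turn, the adjusted p ran from 0.00221 to 1 and was below 0.05 for 6 of the 12 libraries left out, and without either spleen it did not pass. The difference was 2.75 without the testis libraries (adjusted p = 0.071).

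**Figure D4:**
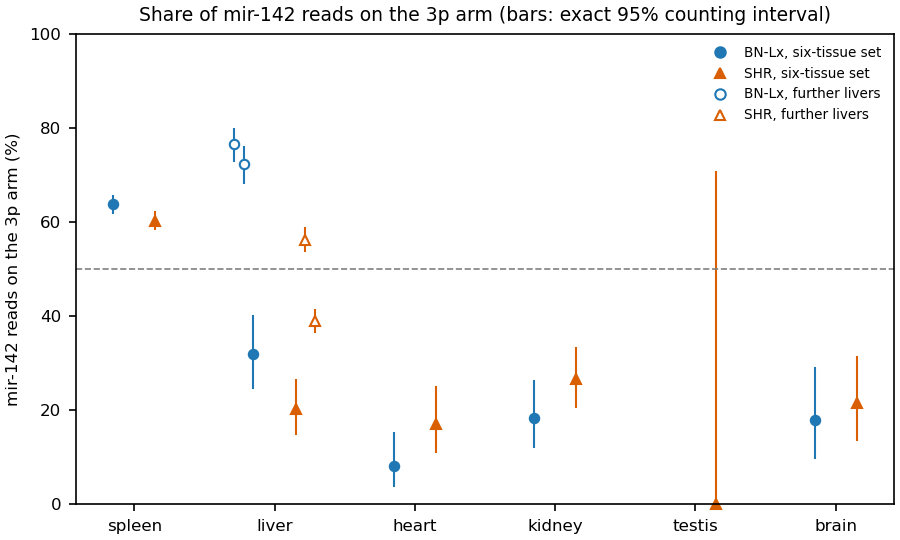
Share of mir-142 reads on the 3p arm in each library (percent, with exact 95% counting intervals), by tissue and strain; the BN-Lx testis had no read. Both spleens lie at 60.3% and 63.8% and the other libraries of the six-tissue set at or below 31.9%, while the further livers run from 38.9% to 76.5%.

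The further livers did not share the arm use of the first livers. The 3p share was 72.3% and 76.5% for the BN-Lx rats, then 56.2% and 38.9% for the SHR rats, from 498 to 1365 reads each, against 31.9% and 20.2% in the first livers. The level of mir-142-3p was 0.438 and 0.580 in the further BN-Lx livers and 0.372 and 0.269 in the further SHR livers. All 4 were above the first livers, whereas mir-142-5p overlapped between the sets. Other miRNAs also moved between the liver sets: mir-126, an endothelial miRNA, summed to 14.9 and 13.1 in the first livers and 36.4 to 52.4 in the further ones, and the macrophage miRNA mir-511 to 0.137 and 0.182 against 1.53 to 1.78. The part of these differences in the arm use of mir-142 was not tested.

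The other members came mostly from a single arm. Over all 16 libraries the main arm held 99.93% of mir-223 reads, 99.93% of mir-150 reads, 99.49% of mir-146a reads, 99.07% of mir-342 reads and 91.32% of mir-146b reads, compared with 54.51% for mir-142. Single libraries departed from these pooled shares. The 5p arm held 14.7% and 7.79% of mir-342 reads in the further BN-Lx livers (19 and 12 reads), and the 5p share of mir-146b was 77% in the BN-Lx brain and 84.8% in the BN-Lx spleen. None of the 5 passed the arm use test against any tissue.

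Where reads start sets the seed, and mir-142 differed here from the RefSeq strands. Its 5p reads began at position 14 of the hairpin in 92.8% to 100% of the reads of every library with any, 2 bases before the RefSeq strand. Its 3p reads were spread over 3 starts. Of 1394 reads in the BN-Lx spleen, 49.7% began at position 52, the RefSeq start, 23% at 53 and 26.3% at 55, and in the SHR spleen the shares of 1243 reads were 52.2%, 28.2% and 18.3%. The commonest read of each start is given with the RefSeq strand it replaces shown above, and the capitals again mark bases 2 to 8.
mir-142-5p from 14: cCCAUAAAguagaaagcacu
mir-142-3p from 52: uGUAGUGUuuccuacuuuaugg
mir-142-3p from 53: gUAGUGUUuccuacuuuaugg
mir-142-3p from 55: aGUGUUUCcuacuuuauggauga
The further livers held the same 3 starts, with 37.5% to 59.6% at position 52 and 17.8% to 29.6% at position 55. In libraries with fewer reads, such as 8 in the BN-Lx heart, the intervals were mostly too wide to separate the starts. The SHR kidney, with 50 reads, was an exception, with 50% at position 52, 46% at 53 and 4% at 55. Its interval at 55 (0.488 to 13.7%) lay below those of the other 2 starts and of both spleens.

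The remaining main arms started more evenly. mir-150-5p began at a single base in 97.5% to 99.5% of reads in every library. mir-223-3p began at position 68 in 81.5% to 90.5% and a base later in 8.94% to 17.9%, and mir-342-3p at position 61 in 76.9% to 95.8%. The later start of mir-223-3p is shown because it carries a shifted seed in up to 17.9% of the reads of this abundant miRNA.
mir-223-3p from 68: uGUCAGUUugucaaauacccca
mir-223-3p from 69: gUCAGUUUgucaaauaccccaa
Of the 7 member arms tested for the share of reads at the commonest start, none differed between spleen and the mean of the other tissues, where 2.7% of 185 arms were called. Against brain, mir-150-5p was called with a log2 difference of 0.46 (SE 0.154, adjusted p = 0.0438), beside 3.78% of arms called higher and 7.57% called in either direction. The shares behind it were 98.4% and 98.1% in spleen and 97.6% and 97.6% in brain. Against liver, heart, testis and kidney, where 4.86%, 3.78%, 0% and 7.57% of arms were called, no member was.

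**Figure D5:**
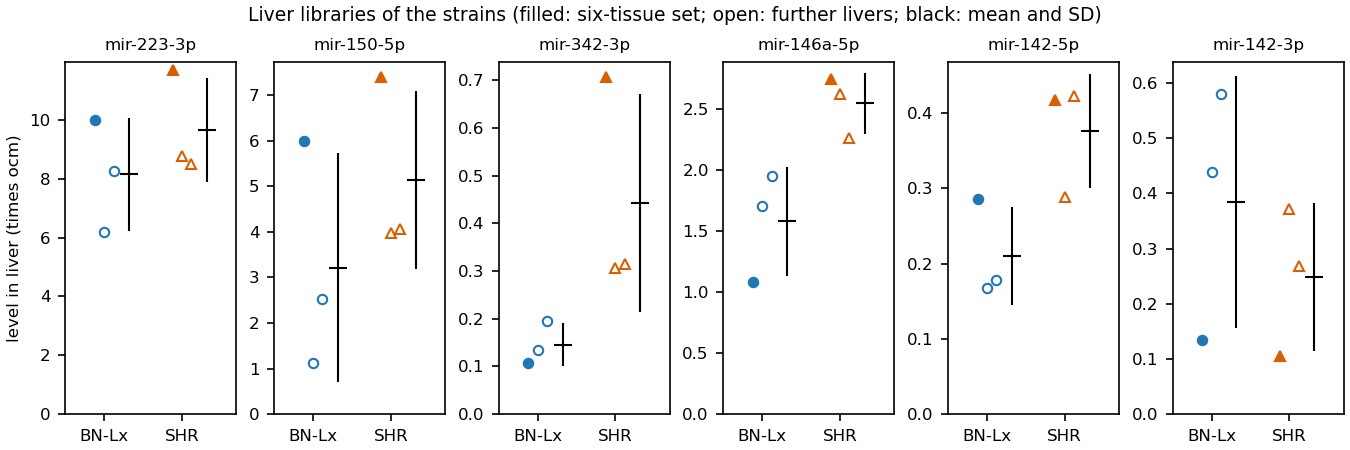
Level of the 6 most read member arms in the 3 BN-Lx and 3 SHR livers, in times the ocm, with the mean and SD in black and the further livers as open symbols. For mir-342-3p, mir-146a-5p and mir-142-5p every SHR liver lies above every BN-Lx liver, while the strains overlap for mir-223-3p, mir-150-5p and mir-142-3p.

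Liver was the only tissue with more than a single rat of each strain. mir-342-3p was at 0.108, 0.134 and 0.196 in the BN-Lx livers and at 0.708, 0.306 and 0.315 in the SHR livers, so that the strains did not overlap. The log2 difference was 1.53 (SE 0.459), with an unadjusted p of 0.0114 in edgeR's quasi-likelihood test and an adjusted p of 0.991 over 271 arms. mir-146a-5p was at 1.08, 1.703 and 1.95 in the 3 BN-Lx rats, below the SHR livers at 2.75, 2.62 and 2.27, a difference of 0.69 (SE 0.39, adjusted p = 0.991). mir-142-5p was at 0.285, 0.168 and 0.178 against 0.417, 0.289 and 0.423, a difference of 0.85 (SE 0.432, adjusted p = 0.991), and on a scale of total reads its livers overlapped.

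The strains did not overlap for 5 of the 9 member arms tested in liver, in each of them with SHR higher, beside 8.49% of all arms tested. The other 2 were mir-146a-3p and mir-146b-5p, which are scarce. Reads shared with mir-146a made up 0% to 14.3% of mir-146b-5p in the livers, and the overlap without them was not tested. No member passed the test, and none of the 271 arms did (0%), although 6 had an unadjusted p below 0.05 and DESeq2 likewise called 0, with 10 at an unadjusted p below 0.05. In an exact permutation test 3 livers against 3 cannot go below 0.1, and the 5 arms that did not overlap reached it. For mir-223-3p the means were 8.14 (SD 1.92) in BN-Lx and 9.65 (SD 1.77) in SHR, a difference of 0.23 (SE 0.358). For mir-150-5p they were 3.22 (SD 2.51) and 5.14 (SD 1.95), a difference of 0.64 (SE 0.606). In the further livers alone the differences were 1.08 (SE 0.265) for mir-342-3p, 1.19 (SE 0.31) for mir-142-5p and 0.57 (SE 0.191) for mir-146a-5p, with adjusted p of 0.3, 0.3 and 0.352.

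Whether the strain difference was another in spleen was tested against that in liver for 10 member arms. By level, mir-150-5p was higher in the BN-Lx than in the SHR spleen and mir-223-3p lower. Set against the strain differences in liver, those in spleen were off by -1.92 (SE 1.09) and -0.39 (SE 0.773) on the log2 scale. Neither could be told from that in liver. By level the ratio of SHR to BN-Lx for mir-223-3p was larger in spleen (138 to 100.1) than in liver (means 9.65 to 8.14), the opposite sign. The fit scales by TMM and not by the ocm. No member passed in any of the 5 tissues, where 0% to 0.215% of 466 arms were called. Each strain is represented by 1 spleen, so that rat and strain cannot be told apart there.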

How the data were processed

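The deposited tables give, for each library, the reads at each start and end position on a miRNA hairpin. Per the paper, the authors sequenced size-selected small RNA on the SOLiD system, trimmed linkers, mapped the reads with SHRiMP and kept perfect matches to hairpins based on miRBase and the rat genome RGSC3.4. The paper also gives more PCR cycles for both testes and for an SHR liver than for the other libraries. The part of this in the differences from testis, from liver and between the livers was not tested. Reads fitting several hairpins are divided, so the values deposited by the authors are estimated counts. They were summed per arm and rounded for tests. The ocm was taken over all 698 arms with reads in the six-tissue set, whereas the study used known loci. Spleen was compared with other tissues by edgeR 4.0.16 (quasi-likelihood, TMM, filterByExpr, strain as a term, Benjamini-Hochberg at 0.05), the livers without a block. Arm use and read starts were tested on paired counts within a library, for hairpins or arms with 10 reads in at least 8 libraries. DESeq2 1.42.0, other scalings and filters, and libraries left out were alternatives. Livers of the same number deviated together (correlations 0.669, 0.57 and 0.3), so a fit with the number as a block was also run. Fits were also run on simulated counts with large changes and less spread than the livers had. That run does not show how the fits perform on these data. Members and lists were chosen with earlier results of these data known. Named arms are all members, their 3 most similar arms (at least 100 reads, 0.01 added before log2) and up to 3 listed blood-formation arms in each direction. No column of per-sample values was left unused. For libraries of a single rat, p-values measure only the spread between these samples.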

Additional observations from a re-analysis of the deposited data

How the results depend on the processing

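The count of arms called between spleen and the mean of the other tissues, 133, was 81 with all 16 libraries and 88 with whole counts only, and ran from 52 (without the BN-Lx spleen) to 150 with single libraries left out (69 without the SHR spleen). In livers the window test of the study's methods, whose p measures spread over miRNAs and not over rats, called 6 arms, none a member (mir-342-3p adjusted p = 0.173). The replicate block called 0 in liver and changed no call; mir-342-3p then had an adjusted p of 0.459. In heart the strain difference called 1 arm, and 0 with RLE scaling or total reads only. For arm use, no strain term (no replicate block) called 1 hairpin, the border at the middle of the hairpin 2, and single libraries left out 0 to 3, against 0. mir-142 was the hairpin called in the first case (adjusted p = 0.05 after rounding). For read starts, single libraries left out gave 4 to 8 calls against 5, with 8 without the BN-Lx brain. The fold rule gave 7 arms at 10-fold and 29 at 2-fold, against 13. The ratio of mir-223-3p to mir-150-5p kept its sign, from 0.99 to 2.04 with single libraries left out, the lowest without the SHR spleen. It was 0.85 with the 4 further livers added.

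Among single members, mir-146b-5p lost its call without the SHR spleen, mir-150-3p without the BN-Lx spleen, and mir-342-5p without either spleen or with all 16 libraries. Directions turned only for values that passed no test. Between spleen and liver, mir-146a-5p went from 0.00 to -0.20 with RLE scaling and to -0.59 with all 16 libraries. In liver, mir-342-5p ran from -0.85 to 0.43. For arm use, mir-342 ran from -0.99 to 0.95 and was -0.04 without the testis libraries, and mir-146b from -0.04 to 0.13. For read starts, mir-150-5p ran from -0.11 to 0.31, and mir-223-3p from -0.11 to 0.02 and was 0.04 without the testis libraries. The causes were not tested. With reads fitting both mir-146a and mir-146b left out, an alternative chosen after seeing the data, 133 arms were called. Testis depth limits every scarce arm, and strain outside liver rests on 1 rat each.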

Other observations

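The tables also list a transcript antisense to mir-150. It had 1 read in the SHR brain and 1 in the SHR spleen and none in the other 14 libraries, which is below the 3-read limit. The endothelial miRNA mir-126, which is also on the wider blood-formation list, was not highest in spleen. Its arms summed to 9.11 and 9.53 there, to 23.9 and 18.8 in heart and to 17.3 and 17.01 in kidney. The macrophage miRNA mir-511 summed to 0.0218 and 0.0656 in spleen, below its 0.137 and 0.182 in the first livers.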
